A study of Capra hircus with 3 samples.

Results

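STRA8, MEIOC, REC8, SMC1B, SYCP2, SYCP3, HORMAD1, SYCP1, SPO11 and DMC1, 10 genes of meiosis, were followed in germ cells from fetal gonads of the domestic goat (Capra hircus). They were chosen by name from 27271 features, of which 16616 carry a symbol, and each of the 10 symbols matched 1 feature. The droplet libraries are labelled as testis of male fetuses at the embryonic stages E85, E105 and E125 (days of gestation), with no treatment or genetic change named. Each stage is 1 library of dissociated cells, so there are no replicates, no p-value was computed, and every difference below lacks a replicate check. The number of animals behind a library is not stated in the labels.

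Meiosis is the pair of cell divisions that makes haploid gametes. In its prophase, cohesin rings hold sister chromatids together, a protein axis forms along each chromosome, programmed DNA breaks are made and repaired from the partner chromosome, and the synaptonemal complex zips the partners together. In mammals, female germ cells enter this prophase in the fetal ovary and then rest in it as oocytes for a long time. Male germ cells of the fetal testis instead stop dividing by mitosis, become prospermatogonia and enter meiosis only after birth, yet several meiosis genes are known to be transcribed in them before that.

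The libraries held 40741902 to 49692252 unique molecular identifiers (UMIs, counts of captured RNA molecules), and 6328, 7069 and 7319 barcodes passed the filters at E85, E105 and E125. Germ cells were gated by counts of markers that exclude the 10 genes. The germ gate asks for at least 3 markers of a list such as MAEL and TDRD1, with at least 2 UMIs of DDX4 and DAZL together, and it took 242 cells at E85 (3.82% of cells) and 91 at E105 (1.29%). The library labelled E125 goes against its label. It had 31.1 CPM of AMH, the Sertoli cell hormone (CPM being UMIs of a gene per 1000000 UMIs), against 1365 at E85 and 3690.2 at E105, and 2081 CPM of the egg-coat gene ZP3 against 1.43 and 4.12. SRY had no UMI in it, which says little beside only 0.110 and 0.123 CPM in the other libraries. An oocyte gate, which adds at least 3 oocyte markers and at least 20 UMIs of ZP3 and FIGLA together, took 80 of its cells (1.09%) and left 1 other germ-gated cell. At the germ gate, 12, 5 and 3 cells lay just inside, and 9, 4 and 9 failed it by 1 marker or 1 UMI alone. A looser gate (2 markers and 1 UMI) took 271 cells at E85 and 99 at E105. A stricter one (5 markers and 4 UMIs) took 216 and 80. No gated cell shared its barcode with a gated cell of another library, although the libraries shared 9 to 14 barcodes in pairs.

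The gated cells carried germ cell genes that no gate used. The 8 measured genes of such a list summed to 1283 CPM at E85, 1376 at E105 and 519 in the oocyte-gated cells. PIWIL4, a piRNA-guided silencing gene of fetal male germ cells, stood at 117 CPM at E85, 151 at E105 and 2.74 in the oocyte-gated cells. MORC1, another silencing gene of the male line, stood at 379, 316 and 11.5 CPM. NANOS2, an RNA-binding gene of fetal male germ cells, had only 4 UMIs at E85 and 0 UMIs in both other classes. The oocyte-gated cells instead carried 9540.1 CPM of ZP3, 3615 of FIGLA, 1634 of ZP4 and 638 of LHX8, a transcription factor of young oocytes. These genes are markers of the oocyte gate, so the selection favours high levels of them and they are no separate check of identity. OOSP2 of the same marker list had no UMI. The oocyte-gated cells also held more RNA counts, with a median of 126932 UMIs per cell against 18888 and 19153 in the germ-gated cells. RNA of somatic cell markers was found in all 3 classes, though not in every cell. The 5 measured Sertoli cell markers summed to 302 CPM at E85, 376 at E105 and 163 in the oocyte-gated cells, none of them at 0, and AMH stood at 92.2, 151 and 0.392 CPM; at least 3 markers of a somatic class were found in 107, 56 and 73 gated cells.

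The 10 genes fell into unlike patterns. In germ-gated cells of both testis libraries all of them were detected, summing to 812 CPM at E85 (95% counting interval 787 to 838) and 874 at E105 (832 to 918), with most of these UMIs from SMC1B and SYCP1. In the oocyte-gated cells the sum was 1117 CPM (1096 to 1137), but it was made up differently. REC8 alone gave 779 CPM there, about 10 times its level at E105 (ratio 9.80). Without cells carrying at least 3 markers of a somatic class the sums took another order. They were 826 CPM in the E105 cells, 804 CPM in those of E85 and 646 CPM over the 7 remaining oocyte-gated cells. That filter dropped 107, 56 and 73 gated cells, from classes with medians of 18888, 19153 and 126932 UMIs per cell. The part of depth in this was not tested. Genes of break formation, strand exchange and the early axis, SPO11, DMC1 and HORMAD1, had 4, 5 and 2 UMIs among the 10201533 UMIs of the 80 oocyte-gated cells. SMC1B and SYCP3 lay within 1.5-fold of E105, and SYCP2, MEIOC, SYCP1 and STRA8 were lower.

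**Figure D1:**
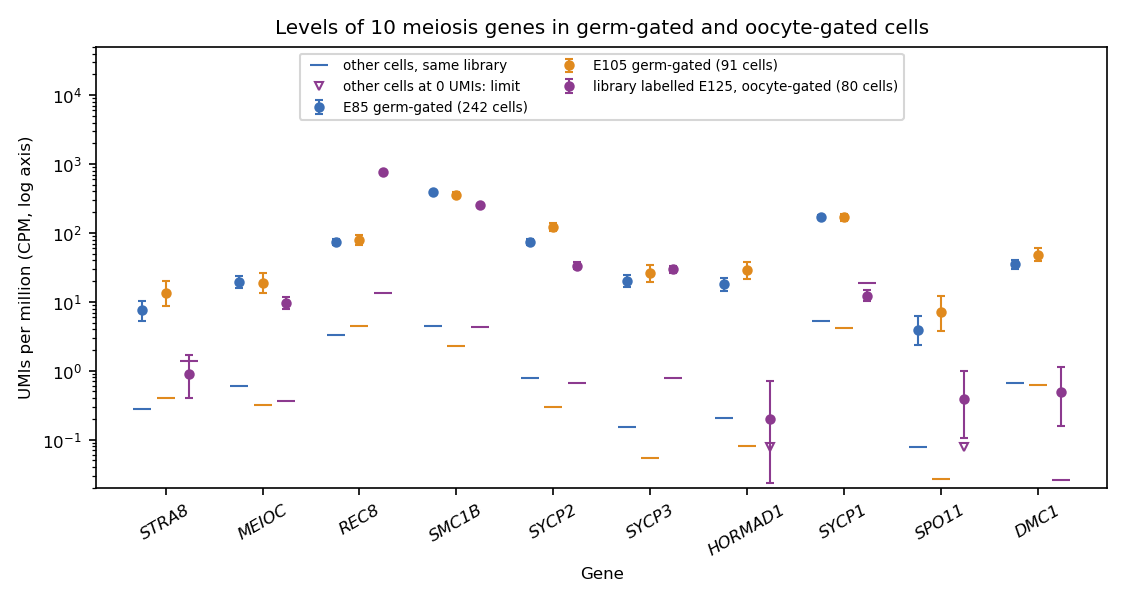
Level of each of the 10 genes in CPM (log axis), with exact 95% Poisson intervals as error bars, in germ-gated cells at E85 and E105 and oocyte-gated cells of the library labelled E125. Dashes give the level in all other cells of the same library, and open triangles the limit that a count of 0 allows; REC8 is highest in the oocyte-gated cells (779 CPM), and STRA8 and SYCP1 lie at or below the other cells there.

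STRA8 (ENSCHIG00000016064), the retinoic acid-induced gene of meiotic entry, had 36 UMIs in the E85 germ-gated cells, 25 at E105 and 9 in the oocyte-gated cells. Those are levels of 7.51 CPM (5.26 to 10.4), 13.6 CPM (8.81 to 20.1) and 0.882 CPM (0.403 to 1.67). The level was highest at E105 and lowest in the oocyte-gated cells, and the intervals of E85 and E105 overlapped. No E85 cell held more than 2 STRA8 UMIs and no E105 cell more than 3, so no cell stood apart by its UMI number. The highest single-cell level, 958 CPM at E105, came from 2 UMIs in a cell of only 2087. In the library labelled E125 the other cells had 1.40 CPM (1.05 to 1.83), with an interval that overlapped that of the oocyte-gated cells. Per cell the oocyte-gated cells held more, at 0.1125 STRA8 UMIs against 0.00732 in the other cells. Whether their STRA8 UMIs are background was not tested.

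MEIOC (ENSCHIG00000011237), which keeps germ cells in the meiotic programme by binding RNA together with YTHDC2, was even between the testis stages. It stood at 19.4 CPM (15.7 to 23.8; 93 UMIs) at E85 and 19.0 CPM (13.3 to 26.5; 35 UMIs) at E105. The oocyte-gated cells had 9.61 CPM (7.80 to 11.7; 98 UMIs), with an interval below both. Per cell the order is the other way round, with 0.384, 0.385 and 1.23 UMIs, and the oocyte-gated cells hold more UMIs in all.

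REC8 (ENSCHIG00000020164), the cohesin subunit that replaces its mitotic counterpart in meiosis, was the gene that set the oocyte-gated cells apart upward. It had 74.5 CPM (67.0 to 82.6; 357 UMIs) at E85, 79.5 CPM (67.1 to 93.4; 146 UMIs) at E105 and 779 CPM (762 to 796; 7947 UMIs) in the oocyte-gated cells. All 80 oocyte-gated cells carried it, from 103 to 1487 CPM with a median of 702. In single germ-gated cells it ran from 0 to 552 CPM at E85 (median 41.3) and from 0 to 320.2 CPM at E105 (median 51.9). The central range of the oocyte-gated cells, 539 to 814 CPM between the quartiles, lay above every E105 cell, while the whole ranges of the 3 classes overlapped. A mean cell held 1.48, 1.60 and 99.3 REC8 UMIs.

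SMC1B (ENSCHIG00000026594), the meiotic partner in the core of the same cohesin ring, was present in nearly every cell of all 3 classes. Its level was 388 CPM (370.4 to 406; 1859 UMIs) at E85, 359 CPM (332 to 388; 660 UMIs) at E105 and 251 CPM (241 to 260.5; 2556 UMIs) in the oocyte-gated cells. The testis stages overlapped and the oocyte-gated cells lay below both. A UMI was found in 98.3% of E85, 96.7% of E105 and 98.75% of oocyte-gated cells. The highest count in a cell was 40, 38 and 86 UMIs. Both cohesin genes were thus read in all 3 classes, with REC8 and SMC1B in opposite order between them.

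SYCP2 (ENSCHIG00000013442), an axis protein that binds SYCP3, was the member with the clearest difference between the testis stages. It stood at 73.6 CPM (66.2 to 81.7; 353 UMIs) at E85, 122 CPM (107 to 140; 225 UMIs) at E105 and 33.5 CPM (30.1 to 37.3; 342 UMIs) in the oocyte-gated cells. None of the 3 intervals overlapped. Single cells still did, with medians of 57.5, 84.3 and 31.9 CPM and cells at 0 in each class. At E105 the cell with the most SYCP2 UMIs held 18 of the 225, in a cell of 54462 UMIs.

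SYCP3 (ENSCHIG00000026071), the other main component of the lateral elements, had 20.03 CPM (16.2 to 24.5; 96 UMIs) at E85, 26.1 CPM (19.3 to 34.6; 48 UMIs) at E105 and 29.6 CPM (26.4 to 33.1; 302 UMIs) in the oocyte-gated cells. Neighbours in this order overlapped, whereas the intervals of E85 and the oocyte-gated cells did not. The classes differed more in UMIs per cell, at 0.397, 0.527 and 3.78. SYCP3 shares its position with CHPT1 in the ARS1.2 annotation, and CHPT1 stood at 2.71, 6.53 and 81.0 CPM, so reads of the overlap could fall to either gene if strand was not used.

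HORMAD1 (ENSCHIG00000010871), the axis protein that promotes break formation and is removed from axes on synapsis, had 18.1 CPM (14.5 to 22.4; 87 UMIs) at E85 and 28.8 CPM (21.6 to 37.7; 53 UMIs) at E105. In the oocyte-gated cells 2 UMIs gave 0.196 CPM (0.0237 to 0.708). A HORMAD1 UMI was found in 71 of 242 cells at E85, 42 of 91 at E105 and 2 of 80 oocyte-gated cells. The testis stages overlapped, and the oocyte-gated cells lay far below both. The 3 axis genes therefore ran from no call (SYCP3) to the lowest ratio of all members (HORMAD1) in the oocyte-gated cells.

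SYCP1 (ENSCHIG00000019909), the transverse filament that joins the axes, was even between the testis stages and low in the oocyte-gated cells. Its level was 172 CPM (161 to 184; 825 UMIs) at E85, 169.8 CPM (151 to 190; 312 UMIs) at E105 and 12.4 CPM (10.3 to 14.7; 126 UMIs) in the oocyte-gated cells. Median cells had 157, 153 and 7.40 CPM. The highest single-cell level at E85, 2909 CPM, came from 4 UMIs in a cell of 1375, the next being 596 CPM. In the library labelled E125 SYCP1 was not particular to the oocyte-gated cells by CPM. All other cells had 18.7 CPM (17.4 to 20.1) from 710 UMIs, and pregranulosa-gated cells 29.4 CPM (21.4 to 39.5). Endothelial-gated cells had 12.3 CPM (9.29 to 16.0), stromal-gated cells 8.87 CPM (7.33 to 10.6) and the 22 Sertoli-gated cells 82.8 CPM (52.5 to 124). By CPM the oocyte-gated level lies above the stromal-gated cells, below the other cells as a whole and inside the range of these classes. Per cell it was higher, at 1.575 UMIs against 0.0981 in all other cells, 0.308 in pregranulosa-gated and 1.05 in Sertoli-gated cells. Whether these UMIs are expression of the oocyte-gated cells was not tested. The 22 Sertoli-gated cells of this library held 0 UMIs of AMH (a limit of 10.8 CPM). Sertoli-gated cells had 2166 CPM of it at E85 and 6785 CPM at E105, so the class name is doubtful here.

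SPO11 (ENSCHIG00000024033), the enzyme that cuts DNA to start recombination, had the fewest UMIs of the 10 genes in the testis cells. There were 19 UMIs at E85 (3.96 CPM, 2.39 to 6.19), 13 at E105 (7.08 CPM, 3.77 to 12.1) and 4 in the oocyte-gated cells (0.392 CPM, 0.107 to 1.00). The testis stages overlapped. Its UMIs came from 18, 13 and 4 cells, nearly all with 1 UMI each.

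DMC1 (ENSCHIG00000025073), the recombinase of meiotic strand exchange, had 35.05 CPM (29.9 to 40.8; 168 UMIs) at E85 and 48.4 CPM (38.9 to 59.6; 89 UMIs) at E105, with intervals that just overlapped. In the oocyte-gated cells it had 0.490 CPM (0.159 to 1.14; 5 UMIs). A DMC1 UMI was found in 99 of 242 cells at E85, 45 of 91 at E105 and 4 of 80 oocyte-gated cells. DMC1 was thus found in many male germ cells and in few oocyte-gated cells, which are several times deeper.

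**Figure D2:**
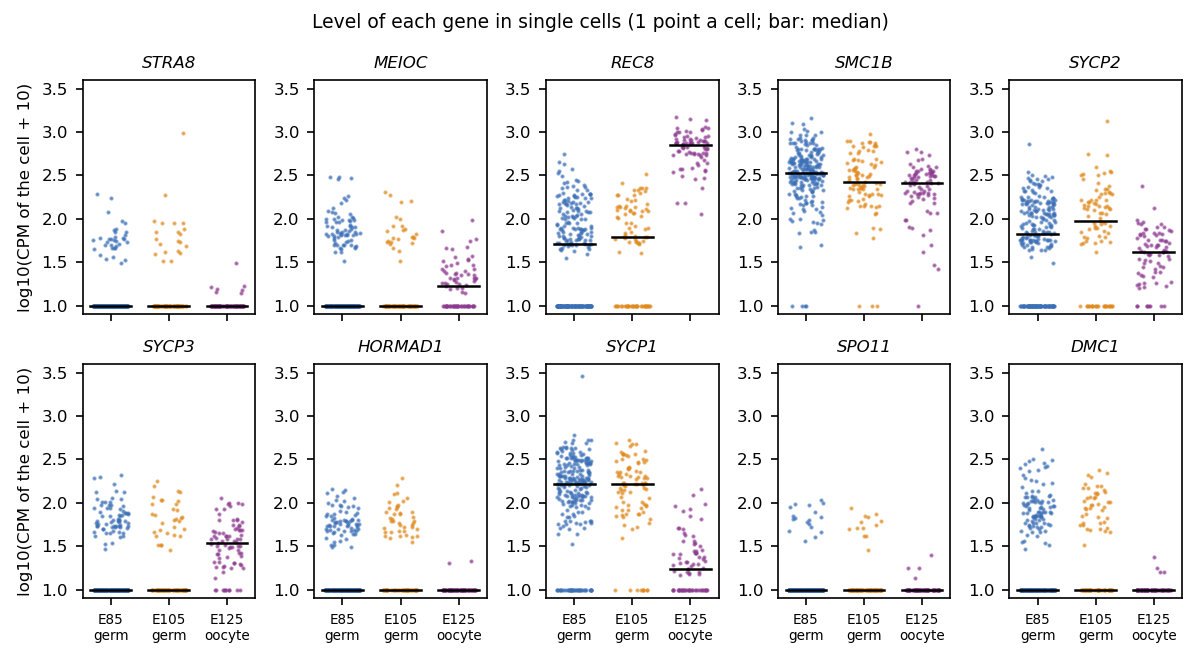
Level of each gene in single cells as log10 of the cell's CPM plus 10, 1 point a cell, for 242 germ-gated cells at E85, 91 at E105 and 80 oocyte-gated cells of the library labelled E125; bars are medians and points at 1.0 are cells with no UMI. REC8 separates the oocyte-gated cells upward, and HORMAD1, DMC1, SPO11 and STRA8 have nearly all oocyte-gated cells at 0.

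Comparing E105 with E85, the question was whether meiosis genes differ between the germ-gated cells of the 2 stages that the series title places around mitotic quiescence. A gene was called when its CPM differed by at least 1.5-fold with at least 20 UMIs over both classes. STRA8, SYCP2, HORMAD1 and SPO11 were called higher at E105 and none of the 10 was called lower, when 20.2% of the 10600 features tested were called higher and 5.13% lower. The ratios were 1.66 for SYCP2 (1.40 to 1.97), 1.59 for HORMAD1 (1.11 to 2.26), 1.81 for STRA8 (1.04 to 3.103) and 1.79 for SPO11 (0.810 to 3.81), the last with an interval that includes 1. DMC1 at 1.38 (1.06 to 1.80) and SYCP3 at 1.30 (0.903 to 1.86) stayed under the fold. REC8 at 1.07 (0.874 to 1.30), SYCP1 at 0.987 (0.863 to 1.13), MEIOC at 0.982 (0.646 to 1.46) and SMC1B at 0.926 (0.846 to 1.01) lay near 1. The axis, break and exchange genes thus all had ratios above 1.3 while the cohesin genes, SYCP1 and MEIOC did not.

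The median log2 ratio of the 10 genes was 0.43, and that of all features tested was itself 0.22. Relative to that shift SYCP2 had a ratio of 1.43 and HORMAD1 of 1.37, and only STRA8 at 1.56 and SPO11 at 1.54 kept at least 1.5-fold. Without cells carrying at least 3 markers of a somatic class, which left 135 cells at E85 and 35 at E105, SYCP2 at 1.60 and HORMAD1 at 1.89 kept it, STRA8 had 1.14 and SPO11 turned to 0.598. The Sertoli marker sum, 302 CPM at E85 and 376 CPM at E105, moved in the same direction as these ratios, and its part in them was not tested.

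**Figure D3:**
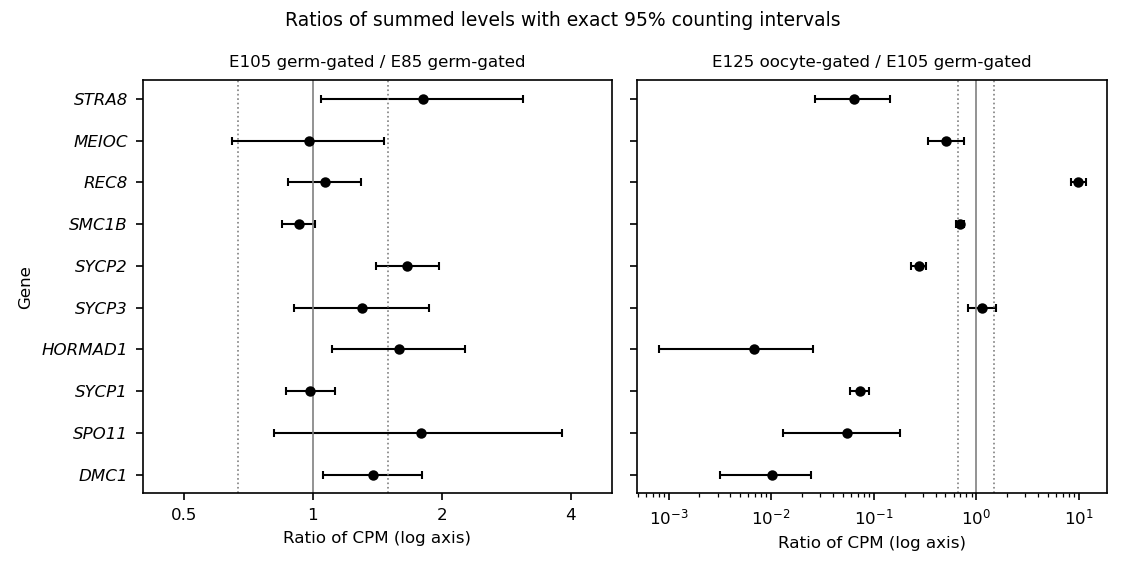
Ratio of CPM for each gene (log axes) with exact 95% counting intervals; left, E105 against E85 germ-gated cells, right, oocyte-gated cells of the library labelled E125 against E105 germ-gated cells. The solid line is 1 and the dotted lines are the 1.5-fold limits; on the right REC8 is the one gene above them, and HORMAD1 and DMC1 lie lowest.

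Setting the oocyte-gated cells against germ-gated cells of E105 compares 2 kinds of germ cell from different libraries, so cell type, stage and library cannot be told apart. REC8 was the single member called higher (ratio 9.80, 8.32 to 11.6). STRA8, MEIOC, SYCP2, HORMAD1, SYCP1 and DMC1 were called lower, 6 of the 9 with enough UMIs, where 29.9% of 12049 features were called higher and 45.9% lower. The median log2 ratio was -1.87 for the 9 genes and -0.44 for all features tested.

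The lower members fell into a steep and a shallow group. HORMAD1 had a ratio of 0.00680 (0.000802 to 0.0258) and DMC1 of 0.0101 (0.00321 to 0.0245). SPO11, with 17 UMIs too few for a call, had 0.0554 (0.0132 to 0.179), STRA8 0.0648 (0.0266 to 0.144) and SYCP1 0.0727 (0.0587 to 0.0897). SYCP2 with 0.274 (0.231 to 0.325) and MEIOC with 0.504 (0.340 to 0.765) were closer to 1. SMC1B at 0.698 (0.640 to 0.761) and SYCP3 at 1.13 (0.834 to 1.57) were not called. With every ratio set against the median of all features SYCP3 reached 1.54 and was called higher, and MEIOC at 0.684 was no longer called lower. Without cells carrying at least 3 markers of a somatic class, which left 7 oocyte-gated cells, the ratio of REC8 was 5.07 and that of MEIOC 1.76.

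Against E85, which shares the oocyte-gated cells with the comparison above, REC8 was again called higher (10.5, 9.41 to 11.7) and 8 of the 10 genes lower, with a background of 32.4% of features called higher and 42.4% lower. SPO11 had 0.0989 (0.0245 to 0.298) and SMC1B 0.646 (0.608 to 0.686) there, both called. SYCP3 had 1.48 and was not called.

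The oocyte-gated cells held several times the UMIs of a germ-gated cell, and UMIs per cell give another order than CPM. Per cell 5 genes had more UMIs than at E105, namely REC8 (61.9 times), SYCP3 (7.16 times), SMC1B (4.41 times), MEIOC (3.19 times) and SYCP2 (1.73 times). The other 5 had fewer on either scale, with per-cell ratios of 0.459 for SYCP1, 0.410 for STRA8, 0.350 for SPO11, 0.0639 for DMC1 and 0.0429 for HORMAD1. MEIOC, SYCP2 and SMC1B are therefore lower as a share of RNA and higher as molecules per barcode. How far cell size and capture set the UMIs per barcode was not tested.

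Shares of cells with a UMI were compared at one depth, with each cell thinned to 9100 UMIs. This left 215 cells at E85, 80 at E105 and 78 oocyte-gated cells, after 27, 11 and 2 shallower cells were left out. SMC1B was found in 92.1%, 91.25% and 85.9% of them, shares too near 100% to show its difference in level. REC8 was found in 38.6%, 51.25% and 98.7% and SYCP3 in 15.8%, 21.25% and 30.8%, both highest in the oocyte-gated cells. SYCP1 was found in 71.6%, 81.25% and 15.4% of cells, SYCP2 in 45.1%, 63.75% and 26.9%, and MEIOC in 15.3%, 16.25% and 6.41%.

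STRA8 (6.05% and 10% of testis cells), HORMAD1 (16.7% and 26.25%), DMC1 (27.9% and 36.25%) and SPO11 (4.65% and 3.75%) had no UMI in any of the 78 thinned oocyte-gated cells (a limit of 3.85%, which holds for cells with a UMI at this thinned depth). Unthinned, 8.75% of oocyte-gated cells carried STRA8, 5% DMC1, 5% SPO11 and 2.5% HORMAD1. The E85 and E105 shares of these 4 genes had overlapping exact intervals, 12.0% to 22.4% and 17.0% to 37.3% for HORMAD1. For SYCP2 the intervals, 38.3% to 52.0% and 52.2% to 74.2%, did not overlap. Without thinning, SYCP2 was found in 68.6%, 75.8% and 90% and MEIOC in 29.3%, 27.5% and 57.5% of cells, so the order of the oocyte-gated cells for these 2 genes depends on depth.

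Sertoli-gated cells, which should lack these genes, gave the background in the testis libraries at median depths of 10723 and 11374 UMIs. At 9100 UMIs they carried SYCP1 in 4.28% and 4.61% of cells, SMC1B in 2.14% and 2.13%, REC8 in 0.590% and 1.18%, and each of the other 7 genes in at most 0.516%. All 10 germ-gated shares lay above these. In the library labelled E125, pregranulosa-gated cells (54 thinned cells, median 8017 UMIs before thinning) carried SYCP1 in 29.6%, more than the 15.4% of oocyte-gated cells, but REC8 in 3.70%, SMC1B in 1.85% and none of the other 7 genes, where 0 of 54 sets a limit of 5.56%.

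**Figure D4:**
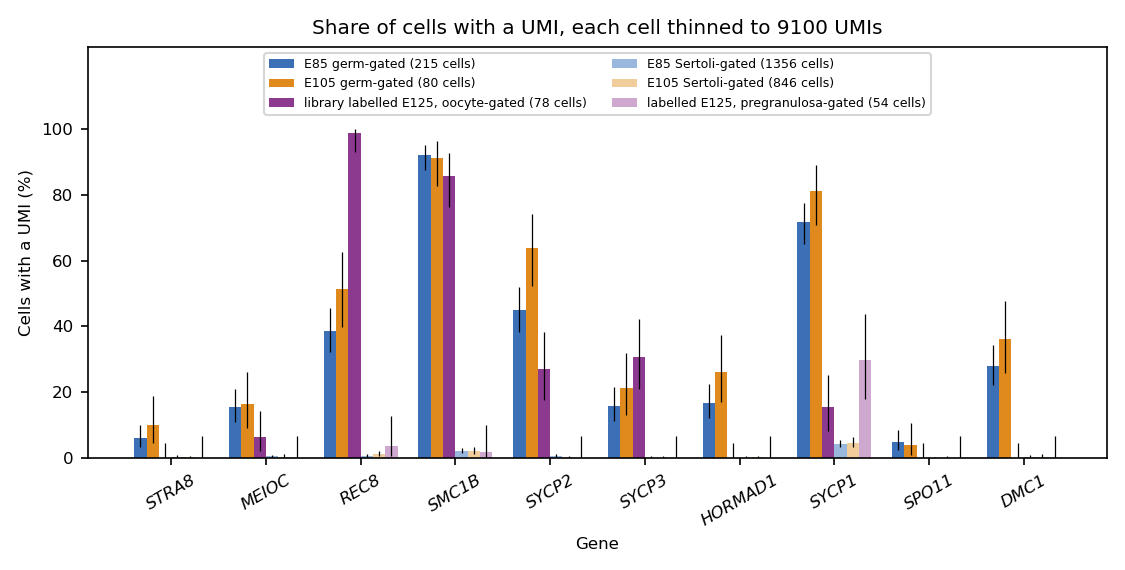
Share of cells with a UMI of each gene (%), each cell thinned to 9100 UMIs, with exact 95% Clopper-Pearson intervals, for the germ-gated and oocyte-gated cells (dark bars) and for Sertoli-gated or pregranulosa-gated cells of the same libraries (pale bars). SYCP1 is the one gene whose pregranulosa-gated share (29.6%) exceeds the oocyte-gated share (15.4%).

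Most single male germ cells showed several members. Whether members occurred together beyond what their single shares give was not tested. A thinned cell carried a mean of 3.34 of the 10 genes at E85, 4.01 at E105 and 2.64 among oocyte-gated cells. At least 3 of them were found in 73.0% (66.6 to 78.8), 85% (75.3 to 92.0) and 52.6% (40.9 to 64.0) of cells, against 0.0737% and 0.118% of Sertoli-gated cells. Cells with a STRA8 UMI, 13 at E85 and 8 at E105, carried a mean of 3.38 and 4.13 of the other 9 genes, and cells without one 3.27 and 3.89. The cells that showed the entry gene were thus close to the others in how many of the other members they showed, in counts too small to compare further.

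In the testis libraries, among somatic classes of at least 50 cells, 2 of the 10 genes, SYCP1 and REC8, reached more than 10 CPM. In smaller classes a few UMIs give a high level, as for SMC1B with 29.0 CPM (5.98 to 84.8) from 3 UMIs in the 34 macrophage-gated cells at E85. SYCP1 stood at 12.7 CPM (18 UMIs) in endothelial-gated cells at E85 and 15.7 CPM (21 UMIs) at E105, and REC8 at 15.8 CPM (6 UMIs) and 29.3 CPM (27 UMIs) in lymphoid-gated cells. Over all other cells the germ-gated level was 32.6 and 40.5 times as high for SYCP1, and 22.6 and 17.9 times for REC8. It was 86.2 and 157 times as high for SMC1B and 95.5 and 414 times for SYCP2. At E105 germ-gated cells held 46.9% of the REC8 UMIs of the kept cells and 95.3% of those of SYCP2. In the library labelled E125 the oocyte-gated level of REC8 was 57.2 times (52.3 to 62.6) that of the other cells, and those of SMC1B and SYCP2 were 58.0 and 50.9 times.

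A wider list of 44 further meiosis genes, sorted by role, put the members beside their pathway. Of the 31 with a feature, 27 had enough UMIs at E105 against E85. Of these, 4 were called higher and 2 lower, beside 20.2% and 5.13% of all features tested. The 4 were SYCE2 of the central element (1.95, 1.30 to 2.89), the crossover gene MLH3 (1.58, 1.25 to 1.98), and SUN1 (1.72, 0.993 to 2.92) and KASH5 (1.91, 0.795 to 4.46), which link telomeres to the nuclear envelope. The lower ones were the break gene MEI4 (0.659, 0.411 to 1.02) and the repair gene MEIOB (0.326, 0.0629 to 1.07; 24 and 3 UMIs). The median log2 ratio of the 27 genes was 0.40.

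In the oocyte-gated cells against E105, 4 of 26 genes of the wider list were called higher and 15 lower, with a median of -0.83, where 29.9% of all features were called higher and 45.9% lower with a median of -0.44. PSMC3IP, a helper of DMC1, stood at 3.81 and 39.4 CPM (10.3, 4.97 to 25.9) although DMC1 itself was nearly missing. MEIOB (3.18, 1.03 to 15.9), SYCE3 (1.64, 1.27 to 2.15) and HSF2BP (1.63, 1.42 to 1.88) were the other three.

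Genes called lower came from every role but the checkpoint. CCNB1IP1 of crossover formation (0.0728), SYCE1 of the central element (0.0831) and MEI1 of break formation (0.0951) had the smallest ratios. RBM46 (0.165) and YTHDC2 (0.492), which act with MEIOC on RNA at meiotic entry, TERB2 (0.170), TERB1 (0.616) and SUN1 (0.483) at telomeres, and BRCA2 (0.176) and SPATA22 (0.218) in strand exchange were called lower too. So were MLH3 (0.298), MSH4 (0.360), TEX12 (0.532), HORMAD2 (0.559) and the cohesin subunit STAG3 (0.587). Roles were therefore not uniform, since SYCE3 and SYCE1, and PSMC3IP and DMC1, were called in opposite directions. Against E85, 5 of 27 were called higher and 13 lower, beside 32.4% and 42.4% of all features.

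**Figure D5:**
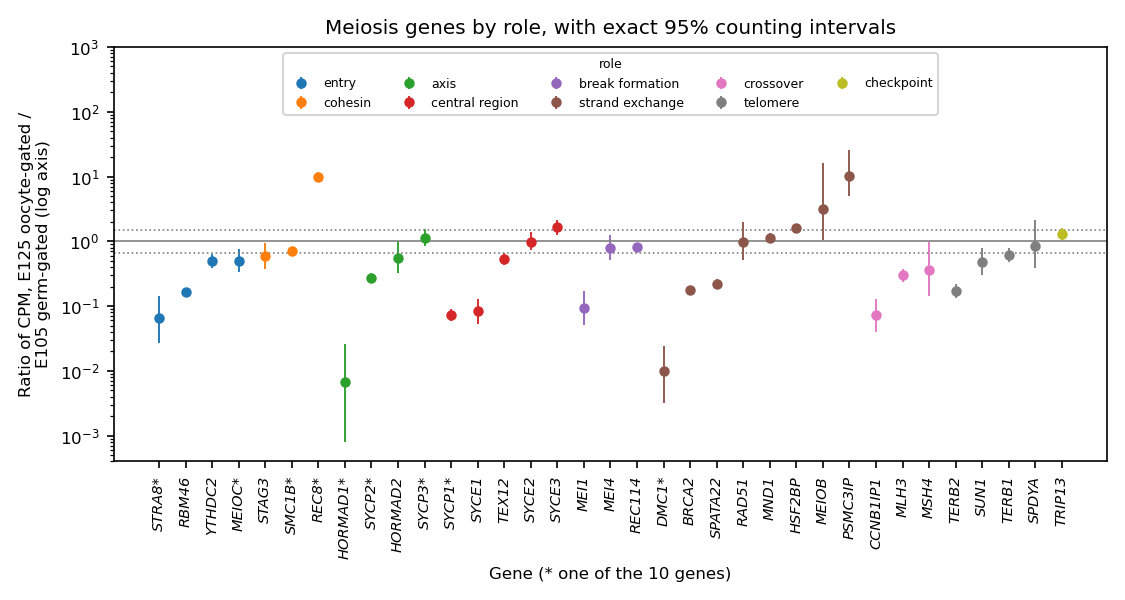
Ratio of CPM (log axis) of oocyte-gated cells of the library labelled E125 to E105 germ-gated cells, with exact 95% counting intervals, for members (asterisk) and further meiosis genes with at least 20 UMIs, coloured by role. REC8 (9.80) and PSMC3IP (10.3) lie highest, and HORMAD1 and DMC1 lowest; dotted lines are the 1.5-fold limits.

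The genes most like each member were sought over 15 classes of at least 50 cells, by Pearson's r of log2(CPM + 1), as a description with no test. The points share libraries and differ in depth, and 3 of the 15 are germ-gated or oocyte-gated classes. For SYCP2 they were HOXC13, the testis bromodomain gene BRDT and GML (r of 0.99 each), and for HORMAD1 PRDM14, a transcription factor of primordial germ cells (r = 0.997), SLC6A19 and DNAH14. SPO11 was most like SLC6A19, ZIC1 and the GDNF receptor GFRA1, and DMC1 like HOXC12, KIF5A and PAX7. For SYCP3 they were SPINK5, IGSF21 and SOX30, for MEIOC AHSG, TBR1 and FEZF2, and for SMC1B SPACA1 and COX7B2. REC8 was most like ULK3 (r = 0.948), DTX2 and RNF114, SYCP1 like EFHC2 (0.968), CCDC150 and PDCD11, and STRA8 like EDRF1 (0.952), FGF18 and C1QL1. No member was among the genes named here as like another.

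REC8 overlaps IPO4 in the ARS1.2 annotation, and MEIOC overlaps CCDC43. IPO4 stood at 12.1, 13.1 and 28.3 CPM in the 3 classes and CCDC43 at 6.68, 10.9 and 10.3 CPM. Reads that both genes of such a pair share cannot be split here, as no source used here states whether counting used strand. STRA8 overlaps an unnamed locus with no feature of that name, and the other 6 members overlap no annotated gene.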

How the data were processed

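Raw UMI counts per feature and barcode were deposited by the authors as filtered matrices, 1 for each library. The submitters' processing notes name Cell Ranger 3.1 as the counting tool, whereas it is 6.0.0 per the file headers. Genome build and annotation: not given in the sources used here. The 10 genes, the gates and the gene lists were chosen with earlier results of these data known.

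Kept barcodes had 1000 UMIs or more, 500 genes or more and no more than 20% mitochondrial UMIs. Cells outside the germ and oocyte gates took the somatic class with at least 3 markers and a margin of at least 2. No doublet caller was run, and an alternative drops gated cells with at least 3 markers of a somatic class. Names of classes rest on marker RNA alone.

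UMIs were summed per class and divided by all UMIs of the class (CPM). Intervals are exact at 95%: Poisson for levels, Clopper-Pearson for shares and the binomial split for ratios. They cover counting error only, and sums of 0 have a limit of 3 counts. Log2 ratios had a prior of 0.5 UMI. Cells were thinned with a fixed seed. Named genes were all members, called genes of the wider list (up to 4 a role, ranked by the interval bound nearest 1, with MEIOB besides) and the 3 most like each member among features with at least 100 UMIs; genes withheld for evaluation are not reported here. The scripts ran in Python 3.11.15 with numpy 2.4.6 and scipy 1.17.1. The calls and ratio intervals were tested on simulated Poisson counts of the class sums, but gates, thinning and shares were not. At E105 against E85, 92% of features raised 2-fold and 91.8% of those lowered 2-fold were called. For the oocyte-gated cells against E105 these were 94% and 83.3%. Overlapping genes were read from a RefSeq table of assembly ARS1.2, without coordinates.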

Additional observations from a re-analysis of the deposited data

How the results depend on the processing

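The count of 4 members called at E105 against E85 was 3 or 4 under 8 of 11 alternatives, 2 without cells carrying at least 3 markers of a somatic class, 2 when centred on the median of all features, and 0 with a fold of 2. The members behind this count changed too, as SYCP3 reached 1.56 in thinned cells and was called higher there. Centring moved the calls over all features from 20.2% higher and 5.13% lower to 10.9% and 9.93%, and in the oocyte-gated cells against E105 from 29.9% and 45.9% to 38.1% and 35.8%, where the members called were 2 higher and 5 lower. The count of 7 in the latter comparison ran from 5 to 8. Dropping cells with somatic markers left 7 of 80 oocyte-gated cells. There the ratio of MEIOC turned to 1.76 and that of REC8 was 5.07. The ratio of SPO11 at E105 against E85 turned to 0.598 under that setting and to 0.806 in thinned cells. Without those cells the summed level of the members was 826 CPM at E105 and 646 CPM in the oocyte-gated cells. Without the deepest 10% of cells, an alternative chosen after seeing the data, it was 784 and 829.9 CPM in the E85 and E105 germ-gated cells and 1085 CPM in the oocyte-gated cells, where a mean over cells gave 1030.3 CPM. The cause of these shifts was not tested. Of 200 ratios recomputed 171 kept within their counting interval, and 62 of 90 shares did. No paired analysis was possible because each stage has 1 library. Depth limits SPO11 and STRA8, with 13 to 36 UMIs in the testis classes.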

Other observations

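A single oocyte-gated cell of 143722 UMIs held 3 of the 9 STRA8 UMIs of its class, 2 of the 5 of DMC1 and 10 of the 126 of SYCP1. It also held 13 UMIs of SYCP3, 10 of SYCP2 and 7 of MEIOC, and 51 of REC8 where the mean cell of the class held 99.3. Its STRA8 level of 20.9 CPM stood beside a next highest of 6.74 CPM. The cell was picked after its values were seen and no test applies to it.

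At E105 the mean STRA8 level over cells was 23.0 CPM, and 12.6 CPM without the cell of 2087 UMIs that held 2 of them. At E85 the mean was 7.77 CPM. The 1 germ-gated cell of the library labelled E125 outside the oocyte gate had 1212 UMIs, too few to describe any of the 10 genes.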
